A study of Mus musculus with 8 samples.

Results

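Promoters that carried both NANOG and BRG1 with either form of Nanog were examined in mouse embryonic fibroblasts (MEFs) undergoing reprogramming. MEFs received Oct4 together with wild-type Nanog (Nanog+Oct4 in the labels, NanogWT here) or with NanogBiD (NanogN70+Oct4 in the labels), in which an N-terminal piece of SS18 that contacts BRG1 is joined to Nanog. The name NanogN70 is not explained in the study's text, and it was taken here, as an inference, to be the NanogBiD fusion described there. The study's methods give delivery of the factors by retrovirus into MEFs of OG2 embryos, which carry an Oct4-driven GFP reporter. CUT&Tag was performed at day 5 in both arms for 4 targets, namely the FLAG tag on NANOG, BRG1, H3K27ac and H3K4me1, the last of which is written as H3K4me in the antibody label. The authors merged replicates before calling peaks, which left 1 library per group with no replicates, so no difference between the arms could be set against a spread between cultures and no test between the arms was made.

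Members were chosen by their FLAG and BRG1 peaks. Peaks of FLAG and BRG1 that overlapped or touched, in either arm, were joined into 93352 regions, of which 22084 held a peak of all 4 lists. In 10370 of these, the tallest FLAG summit of NanogBiD lay within 2 kb of an annotated transcription start site. These 10370 promoter regions were 47.0% of the regions with all 4 peaks and 11.1% of all merged regions. Because a peak of FLAG and of BRG1 in both arms was the condition of entry, their presence and their heights are given below as a description only. The H3K27ac and H3K4me1 lists, the position of each summit and the DNA sequence were not used in the choice, apart from the 2 kb limit. The other 11714 regions with all 4 peaks lay more than 2 kb from a start site and are called distal common regions. They include 4 on sequences without any annotated start site. A further 2851 promoter regions had FLAG in both arms without BRG1 in both, so that 78.4% (95% interval 77.7 to 79.1) of 13221 promoter regions with FLAG in both arms were members.

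By way of background, NANOG is a homeodomain transcription factor of the pluripotency network, and BRG1, encoded by Smarca4, is the ATPase that drives the BAF chromatin remodelling complex. SS18 is a subunit of that complex. H3K27ac marks active promoters and enhancers, while H3K4me1 is typical of enhancers and of the flanks of active promoters. Most promoters of broadly expressed mammalian genes lie in CpG islands, stretches of DNA that have kept their CpG dinucleotides, and their chromatin is open in many cell types. Promoters of tissue-restricted genes are more often poor in CpG.

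The 8 peak lists held between 30859 and 74782 peaks. The H3K27ac list was longer in NanogBiD, with 42598 peaks against 35452 in NanogWT. The H3K4me1 list was longer in NanogWT, with 72242 peaks against 57156 in NanogBiD. The height of a summit is the number of tags piled up there, and it was not scaled to the depth of the library, which is unknown from the lists. The lowest summit in a list was between 6 and 8 tags. The label of the cells was checked on promoters of marker genes within 2 kb of a start site. H3K27ac peaks were present at 18 of 20 fibroblast matrix genes in NanogWT and at all 20 in NanogBiD. They were present at 3 and 5 of 18 epithelial genes, at 7 and 11 of 26 pluripotency genes, and at 0 and 3 of 20 genes of other lineages. Every one of these lists had more genes with a peak in NanogBiD, where the H3K27ac list was longer. The share over all protein-coding genes was not counted, so these counts are not read as gains.

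To show the kind of DNA that lay under these peaks, the DNA from 50 bases before to 50 bases after the tallest FLAG summit of NanogBiD are given for 6 members, read 5′ to 3′ on the strand of the nearest gene from the mouse genome build mm10 (GRCm38). The tallest 3 members are followed by 1 with a large rise and the pair with the largest fall of BRG1 height among members with at least 20 tags of BRG1 in an arm. Capitals mark exact matches, on either strand, to any of 15 short motifs searched.
Gm26917, chr17:39844108-39844208, plus strand: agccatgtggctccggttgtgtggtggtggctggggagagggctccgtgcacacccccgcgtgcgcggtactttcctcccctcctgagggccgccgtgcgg
4932412D23Rik, chr16:42875533-42875633, minus strand: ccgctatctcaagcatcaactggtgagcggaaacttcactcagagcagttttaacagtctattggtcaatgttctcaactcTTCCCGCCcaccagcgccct
Hdgfl2, chr17:56079234-56079334, plus strand: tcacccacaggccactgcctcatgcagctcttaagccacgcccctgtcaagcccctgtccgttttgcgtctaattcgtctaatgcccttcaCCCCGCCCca
Veph1, chr3:66296182-66296282, minus strand: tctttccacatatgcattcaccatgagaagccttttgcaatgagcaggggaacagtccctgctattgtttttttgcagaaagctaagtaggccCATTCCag
Hivep3, chr4:120033074-120033174, plus strand: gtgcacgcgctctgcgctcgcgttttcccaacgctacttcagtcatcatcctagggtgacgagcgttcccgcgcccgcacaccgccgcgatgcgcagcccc
Sdhc, chr1:171150443-171150543, minus strand: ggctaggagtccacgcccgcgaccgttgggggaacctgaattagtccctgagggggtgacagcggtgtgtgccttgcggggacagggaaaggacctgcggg
In 4932412D23Rik the capitals mark an E2F string, in Hdgfl2 an SP/KLF string and in Veph1 a TEAD string. The summits of Gm26917, Hivep3 and Sdhc held no match. Hivep3 and Sdhc, where BRG1 was lower in NanogBiD, lay in DNA rich in CpG, whereas Veph1, where it was higher, lay in DNA poor in CpG.

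The FLAG summits clustered at the start site itself. In NanogBiD the tallest FLAG summit was within 100 bp of the start at 44.6% of members (43.6 to 45.5), within 250 bp at 72.2% (71.3 to 73.1) and within 1 kb at 91.4% (90.8 to 91.9), with a median distance of 120 bp. This summit also decided which start site was nearest. In NanogWT, where it did not, 68.1% of FLAG summits were within 250 bp of the same start and the median distance was 148 bp. BRG1 summits followed with medians of 159 bp in NanogWT and 158 bp in NanogBiD, H3K27ac with 156 bp and 141 bp, and H3K4me1 with 170 bp and 154 bp. Summits of all 4 targets were therefore concentrated close to the start site, but those of BRG1 spread to its sides. In NanogBiD, 15.9% of BRG1 summits lay from -200 to -100 bp, 15.5% from -100 to 0 bp and 17.2% from 0 to 100 bp. The shares in NanogWT were 13.3%, 13.1% and 19.6%. The median H3K4me1 summit lay slightly upstream, at -63 bp in NanogWT and -64 bp in NanogBiD. The FLAG summits of the arms were a median of 79 bp apart (quartiles 27 and 191 bp) and the BRG1 summits 94 bp apart. Distal common regions were similar, with 72 bp for FLAG and 104 bp for BRG1.

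**Figure D1:**
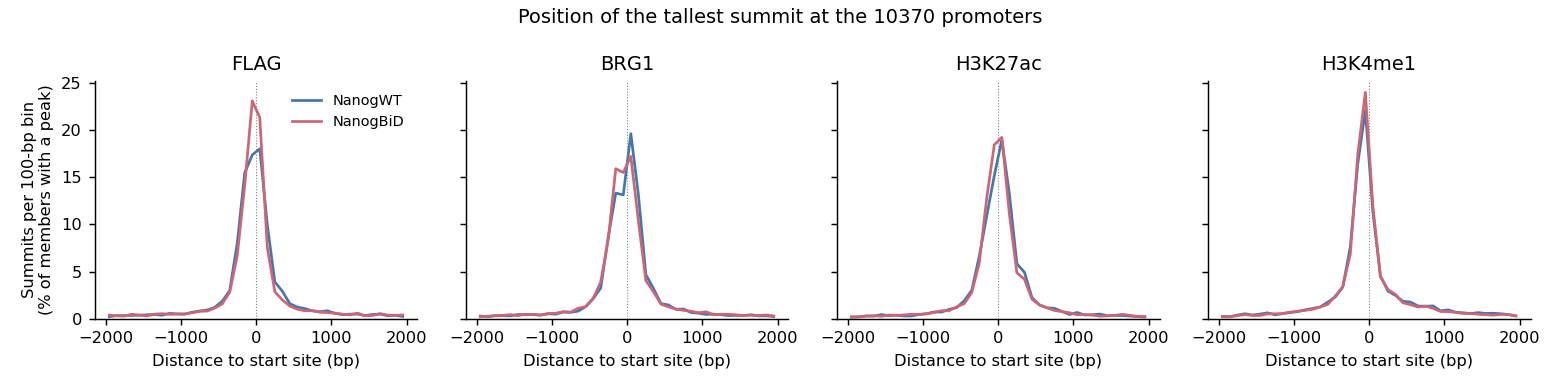
Position of the tallest summit of each target relative to the start site nearest to the NanogBiD FLAG summit, in bins of 100 bp, as a percentage of the members with a peak of that target in that arm. Negative distances are upstream. Summits of all 4 targets are concentrated within 250 bp of the start in both arms, from 60.7% of NanogWT H3K4me1 summits to 72.2% of NanogBiD FLAG summits.

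The nearest start belonged to a protein-coding gene at 86.2% of members (85.5 to 86.8), to a lincRNA at 4.25% and to an antisense transcript at 2.65%. In all, 9876 of 21951 protein-coding genes, or 45.0%, had a member within 2 kb of a start site, and 762 of them had more than 1. A start of another transcript on the opposite strand within 1 kb upstream was found at 14.5% (13.8 to 15.2) of members at protein-coding genes. For all protein-coding genes it was 14.2% (13.7 to 14.7). These shares were not measured alike. Members were measured from the start nearest to the FLAG summit, and those nearest to a noncoding start were left out. Genes were measured from their most upstream start. The shares therefore cannot show whether members differ from other genes.

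Members lay in CpG-rich DNA. In windows of 250 bp either side of the FLAG summit, the median GC content was 60.9% at members and 44.9% at distal common regions. The median ratio of observed to expected CpG was 0.74 at members, 0.23 at distal common regions, 0.28 at promoters with FLAG in both arms and BRG1 not in both, and 0.59 around the starts of all protein-coding genes. A ratio of at least 0.6 with a GC content of at least 50% was found at 66.6% of members (65.7 to 67.5) and 2.17% of distal common regions (1.92 to 2.45). It was found at 13.6% of promoters with FLAG in both arms and BRG1 not in both (12.4 to 14.9), and at 47.9% of protein-coding starts (47.3 to 48.6). Promoters with NANOG in both arms and BRG1 in 1 arm or neither thus resembled distal regions more than members in their base composition. Of the members, 1 was on a sequence outside chromosomes 1 to 19 and X and has no value here.

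Motif matches differed in the same way. Each motif was searched as exact letters on both strands within 50 bp of the FLAG summit, and no motif contained another. The SP/KLF string GGGCGGGG was present at 9.24% of members (8.70 to 9.81) and 0.777% of distal common regions (0.633 to 0.953). The ETS string CCGGAAG was present at 4.61% and 0.649%, and the NF-Y string AGCCAAT at 3.66% and 1.45%. All protein-coding starts held them at 11.7%, 6.70% and 3.08%. Strings of factors that bind enhancers went the other way. The AP-1 string TGANTCA was present at 3.81% of members (3.46 to 4.20) and 15.8% of distal common regions (15.1 to 16.4), and the TEAD string GGAATG at 4.42% and 7.91%. The octamer ATGCAAAT, bound by POU factors such as OCT4, was present at 0.878% and 2.54%, and the NANOG core TAATGG at 2.06% (1.81 to 2.36) and 5.83% (5.42 to 6.27). Protein-coding starts held TAATGG at 1.87%, the octamer at 0.409% and the AP-1 string at 1.87%. In windows 1 kb away from the member summits, the shares were 1.15% for SP/KLF and 0.637% for ETS. TAATGG was more frequent there, at 3.56% (3.22 to 3.93), than at the member summits themselves. So was the string TATAAA, at 6.41% there and 1.91% at the summits. The AP-1 string and the octamer were less frequent there than at the summits, at 2.51% and 0.559%. Distal common regions held TAATGG at 3.96% in windows 1 kb away, below the share at their summits. The E2F string was GGCGGGAA, at 1.07% of members and 1.09% of protein-coding starts. Any of the 15 motifs was present at 32.8% of members and 38.4% of distal common regions.

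Heights of FLAG and BRG1 in each arm are given as a description, since their peaks chose the members. FLAG heights had a median of 19 tags in NanogWT (quartiles 14 and 25) and 20 in NanogBiD (15 and 27). BRG1 heights had a median of 17 tags in NanogWT (13 and 23) and 18 in NanogBiD (14 and 24). At distal common regions, FLAG was slightly taller, at 21 and 22 tags, and BRG1 was shorter, at 12 tags in NanogWT and 17 in NanogBiD. The arms thus overlapped almost wholly at the promoters for both targets, and of these medians only that of distal BRG1 differed between the arms by more than 1 tag.

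The change of each member was taken as log2 of NanogBiD over NanogWT height. Its median was 0.10 for FLAG (95% interval 0.10 to 0.12) and 0 for BRG1, against 0.09 (0.07 to 0.10) and 0.35 (0.35 to 0.36) at distal common regions. BRG1 was higher in NanogBiD at 4771 members, lower at 4549 and equal at 1050. Among the distal common regions it was higher at 8424 and lower at 2510. FLAG was higher at 5941 members and lower at 3631. Heights stayed within 1.5-fold of each other at 87.0% of members for BRG1 and 84.5% for FLAG, compared with 62.4% and 68.7% at distal common regions. Over all regions with the target in both arms, FLAG had a median change of 0.15 and BRG1 of 0.14, while the marks had 0.08 (H3K27ac) and -0.18 (H3K4me1). Set against these medians, members had -0.05 for FLAG and -0.14 for BRG1, so the direction at members depends on the scaling. The BRG1 median of members minus that of distal common regions was -0.35, and it was -0.26 with summits of at least 15 tags and -0.46 with 20000 peaks a list. The part of library depth in this difference was not tested.

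Changes of at least 2-fold were few. BRG1 was at least 2-fold higher in NanogBiD at 203 members (1.96%) and lower at 40 (0.386%), where the background over all regions with BRG1 in both arms was 7.39% and 0.464%. At distal common regions 13.5% were at least 2-fold higher. FLAG was at least 2-fold higher at 195 members (1.88%) and lower at 44 (0.424%), with backgrounds of 7.73% and 1.93%. These shares rest on lists that also chose the members, so they and their splits further on are descriptions only. For H3K27ac, which was not used in the choice, 49 of the 9814 members with a peak in both arms were at least 2-fold higher (0.499%) and 12 lower (0.122%), with backgrounds of 1.53% and 0.419%. For H3K4me1, 2 of 8423 members were higher (0.0237%) and 20 lower (0.237%), with backgrounds of 0.0177% and 0.849%. Promoters thus had smaller shares past 2-fold than the background for H3K27ac in both directions and for H3K4me1 downwards. H3K27ac summits were also taller at members, with medians of 26 and 27 tags against 16 in each whole list. Shares past 2-fold were not compared at like height.

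**Figure D2:**
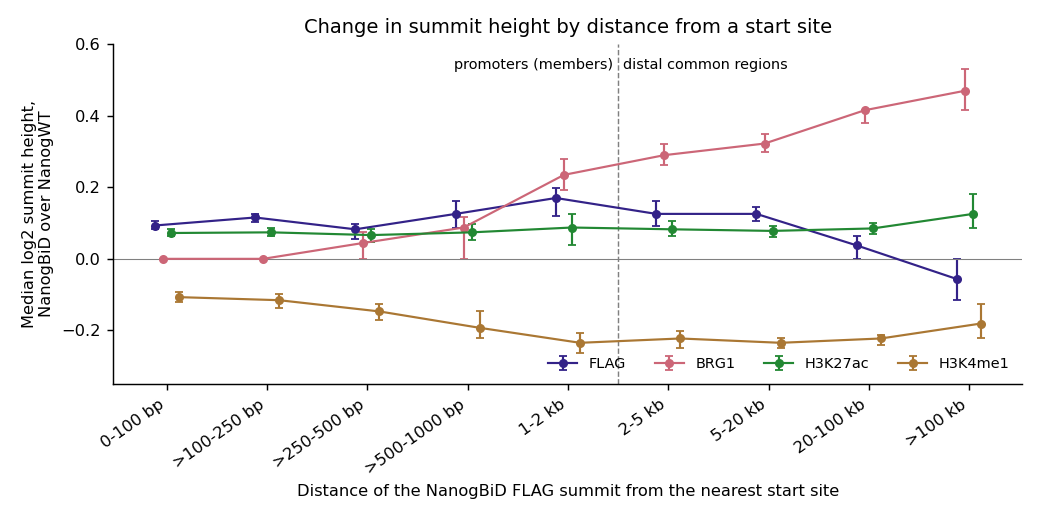
Median log2 ratio of summit height, NanogBiD over NanogWT, for the regions with all 4 peaks, leaving out 4 on sequences without a start site, by distance of the NanogBiD FLAG summit from the nearest start site. Bars are 95% intervals of the median over regions and the dashed line marks the 2 kb limit. The BRG1 median is 0 within 250 bp and 0.47 beyond 100 kb, while the FLAG and H3K27ac medians show no such rise.

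The BRG1 change did not switch at the 2 kb limit but rose with distance from the start site, already among the members. Its median was 0 within 100 bp and from there to 250 bp, 0.04 (0 to 0.07) up to 500 bp, 0.09 (0 to 0.12) up to 1 kb and 0.23 (0.19 to 0.28) between 1 and 2 kb. Beyond the promoters it was 0.29 up to 5 kb, 0.32 up to 20 kb, 0.42 up to 100 kb and 0.47 (0.42 to 0.53) farther away. The members between 1 and 2 kb therefore lay nearer to the distal regions next to them than to the members at the start. FLAG did not follow, with medians of 0.09 within 100 bp, 0.17 between 1 and 2 kb and -0.06 beyond 100 kb. H3K27ac stayed between 0.07 and 0.13 throughout. H3K4me1 was -0.11 within 100 bp and -0.23 between 1 and 2 kb.

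CpG content and height moved with distance, so the BRG1 change was also set out by each of them. Among members with a CpG ratio under 0.2 the median was 0.24 (0.19 to 0.30), and with a ratio of 0.2 to 0.4 it was 0.17 (0.14 to 0.19). In the 3 classes above 0.4 it was 0. Distal common regions of the same CpG classes had 0.39, 0.35, 0.30, 0.15 and 0, and thus fell with CpG as well. In the class from 0.8 upwards, 83 distal common regions and 3928 members shared a median of 0. In the classes below it the distal medians were higher than those of members, with intervals that did not overlap. By BRG1 height, the members' median was 0 in each class of mean BRG1 height, from under 10 tags to 30 or more, and the distal medians ran from 0.15 in the lowest class to 0.53 between 20 and 25 tags. In the lowest class the intervals met, at 0 to 0.15 for members and 0.15 for distal common regions.

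**Figure D3:**
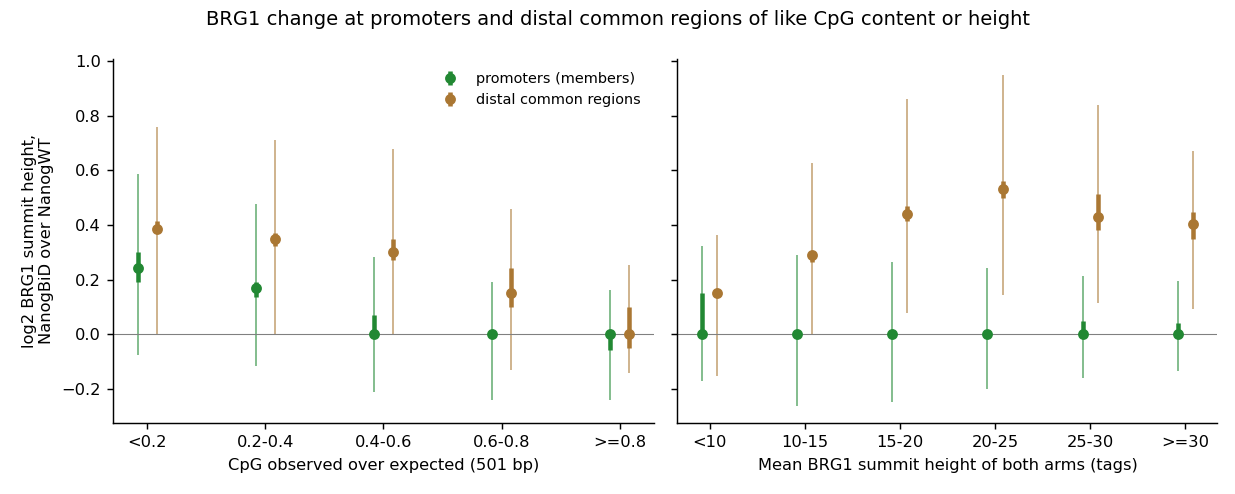
log2 ratio of BRG1 summit height, NanogBiD over NanogWT, by the ratio of observed to expected CpG around the FLAG summit (left) and by mean BRG1 height of both arms (right). Points are medians, thick bars their 95% intervals over regions and thin bars the quartiles. Members are at 0 in each height class and in each CpG class above 0.4. Distal medians are above them except in the highest CpG class, though the intervals meet in the lowest height class.

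The histone marks were then examined, since they took no part in the choice. H3K27ac overlapped 94.6% of members in both arms (94.2 to 95.1), and 74.4% of distal common regions (73.6 to 75.2). It was found in NanogBiD only, and so was gained, at 3.07% of members (2.75 to 3.42) and 12.7% of distal common regions (12.1 to 13.3). The gained share of members was 1.90% with peaks of a score of at least 100, 1.65% with 20000 peaks a list and 1.66% with summits of at least 15 tags. H3K27ac was found in NanogWT only, and so was lost, at 0.868% (0.707 to 1.07) and 5.36% (4.97 to 5.78). The H3K27ac list held more peaks in NanogBiD than in NanogWT. With 20000 peaks a list, the lost share of members was 1.19%, beside the 1.65% gained. H3K27ac was also taller at members, with medians of 26 tags in NanogWT and 27 in NanogBiD against 17 and 18. Among regions that could gain the mark, the shares were closer. Of the 466 members without H3K27ac in NanogWT, 318 had it in NanogBiD, which was 68.2% (63.9 to 72.3), compared with 62.9% (60.9 to 64.8) of 2366 distal common regions. Among NanogBiD peaks of 13 to 17 tags, 11.6% at members (9.81 to 13.7) and 19.8% at distal common regions (18.5 to 21.2) had no NanogWT peak. With 12 tags or fewer the shares were 36.8% (31.9 to 42.1) and 34.2% (32.0 to 36.5). The lower share of loss remained among peaks of like height. With a NanogWT height of 13 to 17 tags, 1.57% of members (1.01 to 2.44) and 8.18% of distal common regions (7.25 to 9.22) had no H3K27ac peak in NanogBiD, and with 25 tags or more 0.341% and 1.80% had none.

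H3K4me1 was present in both arms at 81.2% of members (80.5 to 82.0) and 69.6% of distal common regions (68.7 to 70.4). The share of members was 52.9% with peaks of a score of at least 100 and 49.8% with 20000 peaks a list. It was lost at 5.67% of members (5.24 to 6.13) and gained at 6.12% (5.68 to 6.60). The lost share was 10.8% with peaks of a score of at least 100 and 10.7% with summits of at least 15 tags. At distal common regions it was lost at 14.0% (13.4 to 14.6) and gained at 5.98% (5.56 to 6.42). The H3K4me1 list held more peaks in NanogWT than in NanogBiD. Among H3K4me1 peaks of 16 to 19 tags in NanogWT, 6.68% were lost at members and 15.6% at distal common regions. The height of H3K4me1 nevertheless leaned towards NanogWT at members, with medians of 19 and 17 tags and a median change of -0.13, which was smaller in size than the -0.18 over all H3K4me1 regions and changes its sign when set against it. All members together carried both marks in both arms in 77.8% of cases (77.0 to 78.6), compared with 56.4% of distal common regions (55.5 to 57.3). These intervals cover counting error only, and neighbouring regions are not independent.

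**Figure D4:**
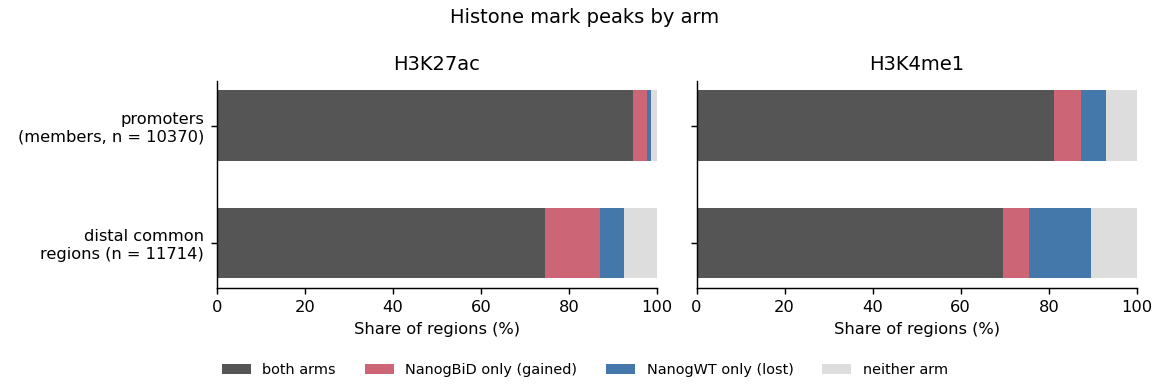
Share of members (n = 10370) and distal common regions (n = 11714) with an H3K27ac or H3K4me1 peak in both arms, in NanogBiD only, in NanogWT only or in neither. H3K27ac is present in both arms at 94.6% of members and 74.4% of distal common regions, and H3K4me1 at 81.2% and 69.6%.

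Members differed among themselves by CpG content, which went with distance from the start. The 7060 members with a CpG ratio of at least 0.6 had H3K27ac in both arms at 98.1% (97.8 to 98.4), and 82 of them gained it. Of the 7060, 0.326% (0.217 to 0.488) had BRG1 at least 2-fold higher in NanogBiD. The 1911 members with a ratio under 0.4 had H3K27ac in both arms at 83.1% (81.4 to 84.7), gained it at 8.90% (7.70 to 10.3) and had BRG1 at least 2-fold higher at 7.95% (6.82 to 9.25). The background over all regions with BRG1 in both arms was 7.39%, which lies within this last interval. FLAG summits of these CpG-poor members were farther from the start, with a median of 672 bp against 88 bp, and held the AP-1 string at 13.6% against 1.23%. Their median H3K4me1 change was -0.23, compared with -0.10 at CpG-rich members. FLAG heights differed little, with medians of 19 and 21 tags in NanogWT and NanogBiD at CpG-poor members and 19 and 20 at CpG-rich ones, whereas BRG1 had 14 and 17 tags at the former and 19 and 18 at the latter. For the presence of H3K27ac, the share with a rise of BRG1 and the AP-1 string, the CpG-poor promoters thus stood between CpG-rich members and distal common regions. The 148 members without H3K27ac in either arm had a median CpG ratio of 0.28 and a median distance of 725 bp.

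The 203 members at which BRG1 was at least 2-fold higher in NanogBiD were largely of this kind. CpG ratios under 0.4 were found at 152 of them, or 74.9% (68.5 to 80.3), and their FLAG summits were a median of 655 bp from the start. The nearest start was protein-coding at 56.2% and of a lincRNA at 12.8%. H3K27ac was present at 74.4% of them in NanogWT and 94.1% in NanogBiD, with 40 gains and 0 losses, where 0 of 203 allows a share of up to 1.86% (Wilson). The string TAATGG lay at the FLAG summit of 31, or 15.3% (11.0 to 20.9), compared with 1.80% (1.56 to 2.07) of members whose BRG1 changed under 2-fold. These 203 were picked after their heights were known, and no test was made. Within CpG-poor members alone the shares were 15.8% (10.9 to 22.4) of 152 and 4.11% (3.28 to 5.15) of 1751. At distal common regions the string was present at 8.85% (7.55 to 10.4) of those with BRG1 at least 2-fold higher and 5.38% (4.96 to 5.84) of those that changed under 2-fold. The string TATAAA, also rich in A and T, was present at 8.37% of the 203 members and 1.79% of members that changed under 2-fold, and within CpG-poor members at 9.21% (5.57 to 14.9) and 4.17% (3.33 to 5.21). The AP-1 string was present at 16.7% (12.2 to 22.5) of the 203 members, at 20.4% (14.8 to 27.5) of the 152 CpG-poor members with the rise, and at 228 of the 1751 CpG-poor members without a 2-fold change, whose interval reached 14.7%. FLAG was also at least 2-fold higher at 30 of the 203, and its median change there was 0.42. The 40 members with BRG1 at least 2-fold lower had a median CpG ratio of 0.68, a median distance of 106 bp and a median FLAG change of 0, and H3K27ac was present at 92.5% of them in each arm.

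Changes of different targets went together less closely at members than at distal common regions. Spearman's rho between the changes of BRG1 and H3K27ac was 0.18 over 9814 members and 0.45 over 8720 distal common regions. Between FLAG and BRG1 it was 0.12 over 10370 and 0.32 over 11714, and between FLAG and H3K27ac 0.12 and 0.40. These are correlations across regions of the same libraries, which share depth and local background, and regions are not replicates. Changes at members also spread less, with a standard deviation of 0.39 for BRG1 against 0.53.

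The tallest members were named by the lowest of their 4 FLAG and BRG1 heights. The region at Gm26917, a lincRNA, at chr17:39842926-39848911, also overlaps an annotated ribosomal RNA gene, CT010467.1. It had 74 tags of FLAG in NanogWT and 91 in NanogBiD, 129 and 163 tags of BRG1, 103 tags of H3K27ac in each arm, and 77 and 65 tags of H3K4me1. It was the tallest peak of the genome in 6 of the 8 lists, ranking lower only for NanogWT FLAG (rank 16) and NanogBiD H3K4me1 (rank 2). Heights in this region were thus high for every antibody alike. At 4932412D23Rik, a lincRNA with a start next to Zbtb20, FLAG had 78 and 77 tags and BRG1 67 and 61. At Hdgfl2, which encodes a relative of hepatoma-derived growth factor, FLAG had 64 and 61 tags and BRG1 54 in each arm. Garnl3 (FLAG 53 and 59, BRG1 55 and 55), 1700064H15Rik (FLAG 54 and 54, BRG1 52 and 57) and 1110020A21Rik, a transcript divergent from the phosphatase gene Ppm1b (FLAG 66 and 65, BRG1 51 and 61), followed. None of these 6 changed 2-fold in any target.

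Large rises of BRG1 were ranked among the 5094 members with at least 20 tags of BRG1 in an arm, and 4 of the 5 largest are given. They were chosen for their BRG1 change and passed the floor in NanogBiD only. In NanogWT they had 7 to 12 tags of BRG1, where the lowest summit of that list had 6. The FLAG summits of these 4 lay away from the start. At Veph1, which encodes a pleckstrin homology domain protein, BRG1 had 12 tags in NanogWT and 46 in NanogBiD, a 3.83-fold difference, FLAG had 55 and 60, and H3K27ac had no peak and 21 tags, so that BRG1 and H3K27ac differed where FLAG hardly did. At 5033421B08Rik, an antisense transcript, both BRG1 (10 and 37 tags) and FLAG (9 and 33 tags) were higher, and H3K27ac was likewise found in NanogBiD only, with 19 tags. Gm13988, a pseudogene, had 7 and 26 tags of BRG1, and Orm1, which encodes the acute-phase protein orosomucoid, had 7 and 24. H3K4me1 was present in both arms at these 4, with 13 to 18 tags in NanogWT and 14 to 22 in NanogBiD.

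The largest falls of BRG1, among the same 5094 members, were smaller. They were likewise chosen for their BRG1 change, and passed the floor of 20 tags in NanogWT only. Hivep3, which encodes a zinc finger transcription factor, had 21 tags in NanogWT and 9 in NanogBiD, and Sdhc, a subunit of succinate dehydrogenase, had the same BRG1 heights. The other targets separated these promoters. At Hivep3, FLAG had 18 and 8 tags, H3K27ac 25 and 13 and H3K4me1 21 and 13, whereas at Sdhc FLAG had 16 tags in each arm, H3K27ac 34 and 33 and H3K4me1 20 in each arm. BRG1 had 25 and 11 tags at both Meis3, a homeobox gene, and Piezo1, which encodes a mechanically gated channel, and 20 and 9 tags at Zfp280b. H3K27ac was not lower in NanogBiD at any of the last 3.

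**Figure D5:**
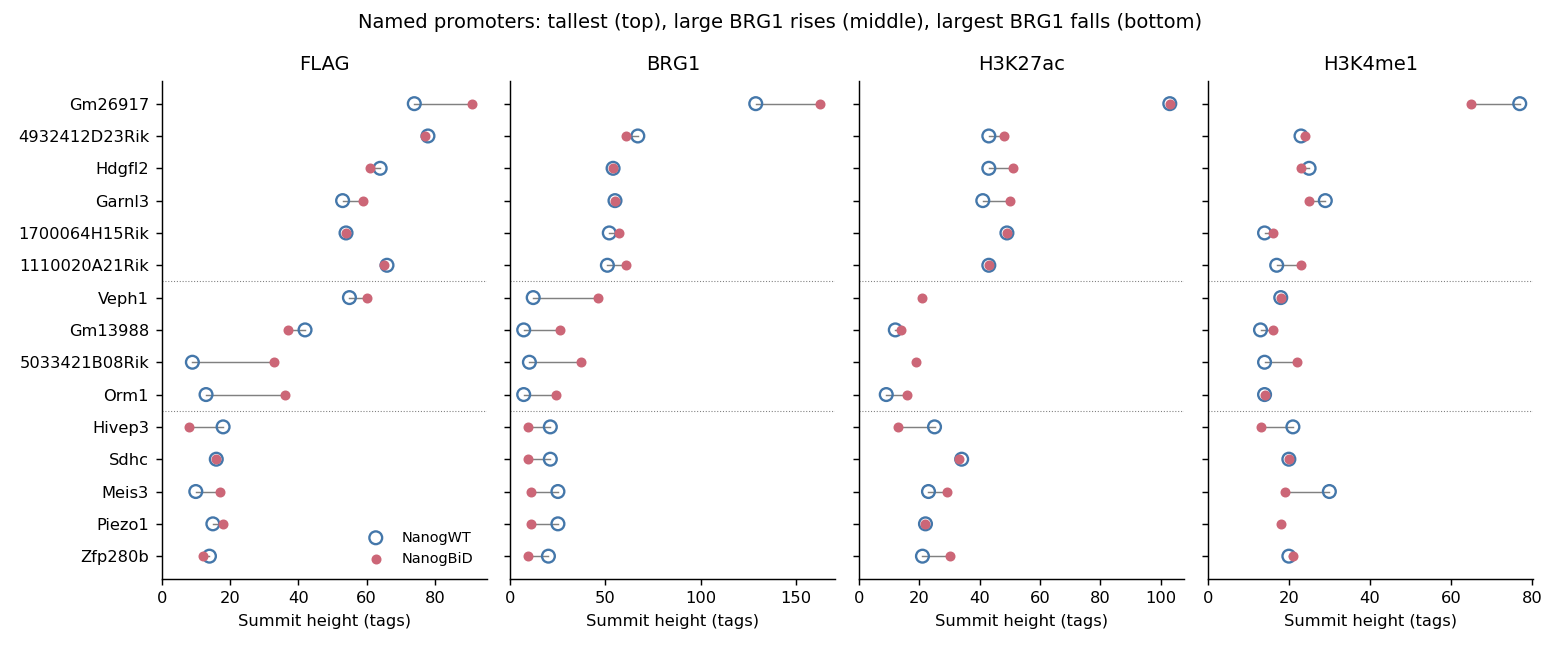
Summit heights in tags at the 6 tallest members, 4 of the 5 with the largest rise and the 5 with the largest fall of BRG1 height among members with at least 20 tags of BRG1 in an arm, for each target. Open circles are NanogWT and filled points NanogBiD, 1 library each, and a missing symbol is the absence of a peak. H3K27ac at Veph1 and 5033421B08Rik is found in NanogBiD only.

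FLAG rose most at Ext2, an enzyme of heparan sulfate synthesis, with 11 tags in NanogWT and 45 in NanogBiD, where BRG1 had 11 and 22 tags and H3K27ac 11 and 23. It was followed by 5033421B08Rik and by Nek9, a mitotic kinase, with 12 and 44 tags of FLAG and 10 and 22 of BRG1. FLAG fell most at Sorcs3, a sorting receptor gene, with 30 and 10 tags, while BRG1 there had 12 and 14. At Sh3d19, an adaptor protein gene, FLAG had 25 and 9 tags and BRG1 15 and 6, and at Cep112, a centrosomal protein gene, FLAG had 35 and 13 and BRG1 14 and 10. These were chosen for their FLAG change from 6352 members with at least 20 tags of FLAG in an arm, a floor that Ext2, 5033421B08Rik and Nek9 passed in NanogBiD only and Sorcs3, Sh3d19 and Cep112 in NanogWT only. At the 2 kb limit itself, the members just inside were at Egfl7 (FLAG summit 2000 bp from the start, BRG1 16 and 19 tags), Sfi1 (1999 bp, 29 and 25) and AC133607.3 (1997 bp, 7 and 18). The regions just outside were at Pappa (2001 bp, BRG1 15 and 14 tags), Cryzl1 (-2004 bp, 12 and 10) and Crcp (2004 bp, 12 and 22), and values of this kind occurred on both sides.

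Genes of general cell functions held members more often than the background of 45.0% of protein-coding genes. Members were found at 70 of 82 cytosolic ribosomal protein genes (85.4%), 40 of 45 genes of mitochondrial complex I (88.9%), 33 of 39 proteasome subunit genes (84.6%), 15 of 17 tRNA synthetase genes (88.2%) and 20 of 24 cell cycle and replication genes (83.3%). Their median BRG1 change was 0 for ribosomal protein, complex I and cell cycle genes, -0.11 for proteasome genes and -0.08 for tRNA synthetase genes, beside 0 over all members. None of their members passed 2-fold for BRG1 or FLAG, beside 1.96% and 1.88% of all members that were at least 2-fold higher. Members were also found at 58 of 78 mitochondrial ribosomal protein genes (74.4%), with 1 member past 2-fold for each of BRG1 and FLAG, at 41 of 51 translation initiation genes (80.4%), with 1 past 2-fold for FLAG, and at 20 of 29 splicing genes (69.0%), with none. At Psmd3, a regulatory subunit of the proteasome, for example, FLAG had 31 and 39 tags and BRG1 40 and 35. At the other end, 4 of 1092 olfactory receptor genes (0.366%), 1 of 20 genes of other lineages, namely Sftpc, and 3 of 18 epithelial genes, namely Krt8, Cldn3 and Crb3, had a member.

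Genes of the BAF complex itself were among those with members, at 23 of 27 (85.2%). At Smarca4, which encodes BRG1, FLAG had 46 tags in NanogWT and 40 in NanogBiD, and BRG1 39 and 31. Arid1a, the large subunit that defines canonical BAF, had 27 and 26 tags of FLAG and 18 and 20 of BRG1 in 1 member and 15 and 19 of FLAG and 20 and 17 of BRG1 in another, and Arid1b had 22 and 37 of FLAG and 20 and 25 of BRG1. Pbrm1, of the related PBAF complex, had 26 and 28 and 25 and 29. Over 27 members at these genes the median change was 0.06 for FLAG and 0 for BRG1, and the member that reached 2-fold was that at Dpf3 for FLAG, with 22 and 11 tags. BRG1 was higher at 11 and lower at 13 of the 27.

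Pluripotency genes held fewer members than the background, at 6 of 26 (23.1%), namely Klf2, Klf4, Klf5, Tbx3, Tet1 and Tet2. Nanog and Pou5f1 had no peak of any of the 4 targets within 2 kb of a start site in either arm. Klf4 had 25 tags of FLAG in each arm and 23 and 22 tags of BRG1. At Tbx3, FLAG had 41 and 28 tags and BRG1 27 and 32, and at Klf5 FLAG had 34 and 23 and BRG1 17 and 19, so FLAG and BRG1 differed in opposite directions. Over the 7 members the median FLAG change was -0.42, with 4 lower, 2 higher and 1 equal, and none reached 2-fold. Among the other pluripotency genes, BRG1 was found in NanogBiD only at Tdgf1, Nr5a2 and Sall4 and in NanogWT only at Sox15 (19 tags), Tfcp2l1 (8 tags) and Sall1 (7 tags), so that 9 genes of the list had BRG1 in each arm. Tdgf1, a co-receptor of Nodal, had FLAG in both arms (19 and 33 tags) but BRG1 (24 tags) and H3K27ac (20 tags) in NanogBiD only. Nr5a2, a nuclear receptor, had 14 and 24 tags of FLAG and 7 tags of BRG1, and Sall4, a zinc finger factor, had FLAG (14 tags) and BRG1 (11 tags) in NanogBiD only.

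AP-1 genes had members at 12 of 15 (80.0%), and FLAG was higher in NanogBiD at 11 of their 13 members, with a median change of 0.38 beside 0.10 over all members. At Jun, FLAG had 46 and 55 tags and BRG1 45 and 42. At Junb FLAG had 19 and 32 and BRG1 30 and 24, at Jund 24 and 41 and 41 and 37, and at Fosl2 31 and 42 and 44 and 34. The member past 2-fold was that at Maff, a small MAF gene, where FLAG had 12 and 34 tags and BRG1 24 and 26. BRG1 was lower at 9 of the 13. Over all 10370 members, FLAG was higher at 5941 and BRG1 lower at 4549, and no test was made of this list. At Fos, BRG1 had 33 and 23 tags, FLAG 28 and 32, and H3K27ac 41 and 55.

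Genes of the p53 and senescence barrier had members at 11 of 12 (91.7%). At Cdkn1a, which encodes the cell cycle inhibitor p21, FLAG had 23 and 33 tags and BRG1 31 and 25. Cdkn2a, which encodes p16 and ARF, had 2 members that differed in direction. In 1 of them FLAG had 11 and 21 tags, BRG1 14 and 19 and H3K27ac 12 and 20, and in the other FLAG had 13 and 15, BRG1 13 and 9 and H3K27ac 22 and 18. FLAG was higher at 10 of 13 members, with a median of 0.21. Mesenchymal transcription factor genes had members at 12 of 19 (63.2%) and fibroblast matrix genes at 12 of 20. At Twist1, FLAG had 31 and 23 tags and BRG1 27 in each arm, and at Osr1, the member of this list past 2-fold, FLAG had 27 and 13 and BRG1 23 and 13. Among the matrix genes the median BRG1 change was -0.25, with 7 lower and 5 higher. Col1a1 had 22 and 14 tags of BRG1 and Col1a2 16 and 10, while Vim, with the tallest peaks of this list, had 46 and 52 and Pdgfra 30 and 33. None of these lists was tested. For comparison with single members, though not with the median of a list, the BRG1 change of 90% of all members lay between -0.56 and 0.70.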

How the data were processed

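CUT&Tag reads of 8 libraries were processed by the authors, whose notes name Trim Galore 0.6.4, Bowtie2 2.4.5, SAMtools 1.16.1 and MACS 1.4.2, with mm10 as the genome. Replicates were merged by the authors before peak calling. In the deposited peak lists the score is a multiple of the negative log10 of MACS's p-value, with a lowest score of 50. The deposited summit signal is the height of the tag pileup, not scaled to depth, which is unknown, so the heights of the arms are comparable only up to a factor for each library. An IgG library was not analysed here.

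Groups followed the labels. Peaks were joined where they overlapped by 1 bp or touched, and start sites were those of the GENCODE annotation of mm10. A mark counted as present where its peak overlapped a region, and the tallest summit gave the height. Medians have 95% order-statistic intervals and shares 95% Wilson intervals. Python 3.11.15, pandas 2.3.3, NumPy 2.4.6, SciPy 1.17.1 and matplotlib 3.10.9 were used. The classification was tested on simulated data, with 0 regions placed wrongly.

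Genes were named by rule, namely the 6 members with the highest lowest-of-4 height, the 5 and 5 with the largest rise and fall of BRG1, the 3 and 3 of FLAG (at least 20 tags in an arm), the 3 on each side of 2 kb, and genes of the lists. The result for 1 gene that the rule names is not reported here. Examples from other lists were chosen after their values were seen. Members and lists were chosen with earlier results of these data known. Alternatives were other score, height and list-size limits, promoter widths, start sites, merging gaps, scalings and motif windows.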

Additional observations from a re-analysis of the deposited data

How the results depend on the processing

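The number of promoter regions with FLAG and BRG1 in both arms fell to 4619 when each list was limited to its 20000 best-scoring peaks and to 5355 with summits of at least 15 tags. It stayed within 1.5 times of the number reported with a score of at least 100, promoters of 1 kb, protein-coding starts, the NanogWT summit or a merging gap of 500 bp. The median FLAG change was 0.0046 by peak score and reversed to -0.049 when heights were scaled to a median change of 0 over all regions with the target in both arms. The median BRG1 change was 0.049 with 20000 peaks a list, 0.080 by score and -0.14 when scaled, so the sign of neither median is settled without the depth of the libraries. The BRG1 median of members minus that of distal common regions was -0.35, and in alternatives chosen after seeing the data it was -0.46 with 20000 peaks a list, -0.26 with at least 15 tags, -0.46 by score and -0.35 in the other 5. H3K27ac in both arms was at 96.1% with a score of at least 100, 95.8% with 20000 peaks, 96.8% with at least 15 tags, 96.1% with promoters of 1 kb and 95.9% at protein-coding starts. H3K4me1 in both arms fell to 52.9%, 49.8% and 70.3% in the first 3 of these and was 82.1% with promoters of 1 kb. The share with a motif was 17.2% within 25 bp of the summit. No paired analysis was possible because a group held 1 library only.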
